A study of Mus musculus with 32 samples.

Results

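The genes described here make up the pathways that show peptides to T cells. They were taken by symbol from the count table, 10 of its 33000 genes. H2-K1 and H2-D1 encode the classical class I heavy chains, H2-T23 encodes a nonclassical class I heavy chain and B2m encodes beta-2 microglobulin, the light chain shared by class I molecules. Tap1 (a subunit of the peptide transporter) and Tapbp (tapasin) load peptides on class I. Psmb8 and Psmb9 are catalytic subunits of the immunoproteasome. Cd74 (the invariant chain) and H2-Aa (a class II alpha chain) belong to the class II pathway. On GRCm38, 8 of the 10 genes lie in the major histocompatibility complex on chromosome 17, from Tapbp (start 33915899) to H2-T23 (end 36032855), and B2m lies on chromosome 2 from 122147686 to 122153083.

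Class I molecules are displayed by nearly all nucleated cells and carry peptides cut in the cytosol by the proteasome and carried by the transporter into the endoplasmic reticulum. Class II molecules are displayed mainly by professional antigen presenting cells, and in the brain parenchyma microglia can acquire them. In healthy brain both are known to be low, and interferon is the classical inducer of most of the genes named above.

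Frontal cortex RNA came from C57BL/6 mice aged 3 months, either wild type (WT) or homozygous for the GFAP-IL6 transgene, in which the promoter of the astrocyte gene Gfap drives interleukin 6. No other allele or agent was named for either genotype. Total RNA amounts of 50, 10, 1 and 0.5 ng entered reverse transcription for 3′Pool-seq, a method that counts 3′ ends, with 4 libraries per genotype and input and 32 in all. The labels do not state whether replicates were separate animals or whether a number marked the same RNA at each input, so p-values here measure the spread between these libraries.

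The promoter windows of the 4 class I chains are shown because H2-K1, H2-D1 and B2m followed the same libraries in the results and H2-T23 did not. They are RefSeq sequences of GRCm38.p6, from 250 bases before to 50 bases after a transcript start, written 5′ to 3′ on the strand of the gene. H2-K1 lies at chr17:34000298-34000597 on the minus strand, H2-D1 at chr17:35262844-35263143 on the plus strand, B2m at chr2:122147437-122147736 on the plus strand and H2-T23 at chr17:36032652-36032951 on the minus strand. Capitals mark letters that match an ISRE-like motif (GAAA, any 2 bases, GAAA), a GAS-like motif (TTCNNNGAA) or a kappa B-like motif (GGGA, any 4 bases, CC) on either strand.
H2-K1: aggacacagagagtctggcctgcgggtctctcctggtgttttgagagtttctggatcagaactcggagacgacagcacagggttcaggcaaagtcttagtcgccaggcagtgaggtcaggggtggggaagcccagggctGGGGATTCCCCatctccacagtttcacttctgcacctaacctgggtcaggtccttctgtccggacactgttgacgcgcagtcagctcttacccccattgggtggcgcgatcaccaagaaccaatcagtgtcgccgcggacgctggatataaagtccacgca
H2-D1: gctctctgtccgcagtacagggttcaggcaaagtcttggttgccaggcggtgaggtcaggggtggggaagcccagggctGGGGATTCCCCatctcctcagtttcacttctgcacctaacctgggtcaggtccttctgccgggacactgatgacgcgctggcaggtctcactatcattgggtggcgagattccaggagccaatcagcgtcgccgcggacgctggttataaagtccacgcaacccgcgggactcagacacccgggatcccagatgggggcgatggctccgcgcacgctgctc
B2m: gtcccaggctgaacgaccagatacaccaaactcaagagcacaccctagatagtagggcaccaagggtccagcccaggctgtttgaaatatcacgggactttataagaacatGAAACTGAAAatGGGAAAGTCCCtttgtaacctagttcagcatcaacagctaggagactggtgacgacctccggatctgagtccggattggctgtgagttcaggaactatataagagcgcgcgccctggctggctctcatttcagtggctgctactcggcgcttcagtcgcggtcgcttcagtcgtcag
H2-T23: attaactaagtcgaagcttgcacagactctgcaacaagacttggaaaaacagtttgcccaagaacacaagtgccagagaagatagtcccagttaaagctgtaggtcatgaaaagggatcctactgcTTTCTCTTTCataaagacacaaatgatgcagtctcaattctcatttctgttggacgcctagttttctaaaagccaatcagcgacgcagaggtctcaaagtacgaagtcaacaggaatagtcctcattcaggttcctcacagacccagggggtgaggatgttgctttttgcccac

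The windows of H2-K1 and H2-D1 shared an identical run of 47 bases that held their capitals, the longest run common to any pair of the 9 genes with a window when each is read on its own strand. These capitals were kappa B-like matches and began at position -111 in H2-K1, with 0 as the start, and at position -171 in H2-D1. From another transcript start of H2-K1, whose window is not shown, the same match began at position -125. The B2m window held an ISRE-like match at position -139, just before a kappa B-like match at position -127. The H2-T23 window held an ISRE-like match at position -124 and no kappa B-like match. Among 32851 windows of the same length, 3.44% held the ISRE-like motif, 8.30% the GAS-like motif and 20.7% the kappa B-like motif. The kappa B-like motif was also in the window of H2-Aa, and the GAS-like motif was in the Psmb8 window alone among the 9. The Y box (CCAAT), in 37.4% of windows, was in 8 of the 9, Psmb8 being the exception. Overlap between the ISRE-like and kappa B-like matches was possible on these rules, and a match is a description of letters, not a site of binding. Variants of these letters were not searched for. A window without a match, such as H2-K1 or H2-D1 for the ISRE-like motif, may thus still hold a variant. The windows of Tap1 and Psmb9, which are transcribed in opposite directions, overlapped by 275 bases.

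Total counts ran from 261378 to 9840302 per library, and 3 counts, used as the floor, corresponded to 0.305 to 11.5 CPM, which are counts scaled to a common library total. At 50 ng Il6 had 4 to 22 counts per GFAP-IL6 library and 0 to 1 count per WT library, and Gfap had 30.6 to 74.0 CPM against 8.89 to 14.5 CPM. At 50 ng GFAP-IL6 replicate 4 had the lowest Il6 of its group, 0.717 CPM on 4 counts, and the lowest Gfap at 30.6 CPM. At 10 ng its Gfap was again the lowest (25.5 CPM), but the lowest Il6 was in replicate 2 (1.88 CPM, against 2.03 CPM in replicate 4). Replicate 4 was the lowest of the 4 GFAP-IL6 libraries for 7 of the 10 antigen presentation genes at 50 ng and for 37.2% of all 11773 genes tested. At 10, 1 and 0.5 ng it was the lowest for 4, 3 and 2 of the 10 genes, beside 25.4%, 19.5% and 18.9% of genes tested. Its summed oligodendrocyte markers were the lowest of all libraries at 50 ng, 3500 CPM against at least 4870 CPM in the other GFAP-IL6 libraries and 5210 CPM in WT. In the other direction, it had the highest summed astrocyte markers (3980 CPM) and the highest level of the microglial integrin Itgam (34.6 CPM, against 18.7 to 25.1 CPM in the other GFAP-IL6 libraries). Values without this library are given beside the main ones, a choice that follows from having seen its values. Where it was the lowest of its group, leaving it out raised the fold change by construction. P-values from those fits are descriptions, not separate tests. WT replicate 3 had 3350 CPM of the choroid plexus gene Ttr at 50 ng, against at most 111 CPM in the other WT libraries. Its summed choroid plexus markers were 3390, 3020, 3100 and 3120 CPM at 50, 10, 1 and 0.5 ng. The high value thus recurred in the same-numbered library at every input.

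H2-K1 had the smallest unadjusted p of the 10 genes at 50 ng (edgeR, 0.00137). Its levels were 45.4, 45.1, 52.6 and 47.8 CPM in WT replicates 1 to 4 and 113, 79.3, 93.1 and 50.5 CPM in GFAP-IL6 replicates 1 to 4. Replicates 1 to 3 of GFAP-IL6 were above every WT library, and replicate 4 lay within the WT range. The means were 47.7 ± 3.46 and 84.1 ± 26.3 CPM (SD, n = 4). The log2 difference of 0.78 ± 0.212 (SE) did not pass edgeR's quasi-likelihood test over all genes (adjusted p = 0.252). At 10 ng WT had 56.6, 52.8, 44.0 and 44.9 CPM of H2-K1 and GFAP-IL6 had 82.2, 78.0, 100 and 52.9 CPM, so replicate 4 again lay below a WT library while the others lay above all of them. For H2-K1 at 10 ng the log2 fold change was 0.62 ± 0.191 (SE, edgeR adjusted p = 0.286). Without GFAP-IL6 replicate 4, H2-K1 passed the same test at both inputs. The log2 fold change was then 1.0 at 50 ng (edgeR adjusted p = 5.43e-05) and 0.79 at 10 ng (edgeR adjusted p = 0.0462). That library was the lowest of its group for H2-K1 at both inputs, so leaving it out raised the fold change by construction.

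H2-D1 had the same arrangement. Its levels at 50 ng were 62.5, 57.9, 76.2 and 61.3 CPM in WT and 107, 89.6, 122 and 46.2 CPM in GFAP-IL6. Replicate 4 of GFAP-IL6 was the lowest of all 8 libraries and the other 3 were the highest. The log2 fold change of H2-D1 was 0.46 ± 0.226 (SE, edgeR adjusted p = 0.835) with all libraries and 0.72 without GFAP-IL6 replicate 4 (edgeR adjusted p = 0.00153). At 10 ng WT had 42.0, 48.2, 83.1 and 63.6 CPM and GFAP-IL6 had 90.3, 88.3, 120 and 63.5 CPM. GFAP-IL6 replicates 1 to 3 were again above every WT library. The log2 fold change at 10 ng was 0.57 ± 0.195 (SE, edgeR adjusted p = 0.414), and without GFAP-IL6 replicate 4 it was 0.72 (edgeR adjusted p = 0.162).

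B2m had at least 145 counts in every library at every input. At 50 ng its levels were 479, 487, 520 and 525 CPM in WT and 724, 664, 783 and 319 CPM in GFAP-IL6. The 4 WT libraries were close together, 3 GFAP-IL6 libraries were above them and replicate 4 was below them. The log2 fold change of B2m at 50 ng was 0.27 ± 0.205 (SE, edgeR adjusted p = 0.837) and became 0.51 without GFAP-IL6 replicate 4 (edgeR adjusted p = 0.00269). At 10 ng WT had 479, 473, 507 and 553 CPM and GFAP-IL6 had 718, 621, 781 and 516 CPM, a log2 fold change of 0.36 ± 0.132 (SE, edgeR adjusted p = 0.490), against 0.46 without GFAP-IL6 replicate 4 (edgeR adjusted p = 0.148). GFAP-IL6 replicates 1 to 3 exceeded every WT library in B2m at each of the 4 inputs, and replicate 4 did so at none. The 3 highest B2m libraries at each input were thus the same-numbered GFAP-IL6 libraries. Same-numbered libraries may share RNA, so the inputs are not independent repeats.

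H2-T23 differed in pattern from the other class I chains. Its levels at 50 ng were 27.7, 23.3, 22.8 and 21.4 CPM in WT and 27.5, 31.7, 22.4 and 15.8 CPM in GFAP-IL6, and the groups overlapped. Its log2 fold change was -0.05 ± 0.238 at 50 ng and -0.26 ± 0.238 at 10 ng (SE, edgeR adjusted p = 0.976 and 0.828). Leaving out GFAP-IL6 replicate 4 gave 0.13 and -0.34 (edgeR adjusted p = 0.989 and 0.977). Of the 431 runs of 70 bases in the last 500 bases of its transcript, 95 were also in a transcript of another gene, so uniquely aligned reads could miss part of H2-T23. That share was 22% for H2-T23, 0.464% for H2-D1 and 0% for the other 8 genes.

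**Figure D1:**
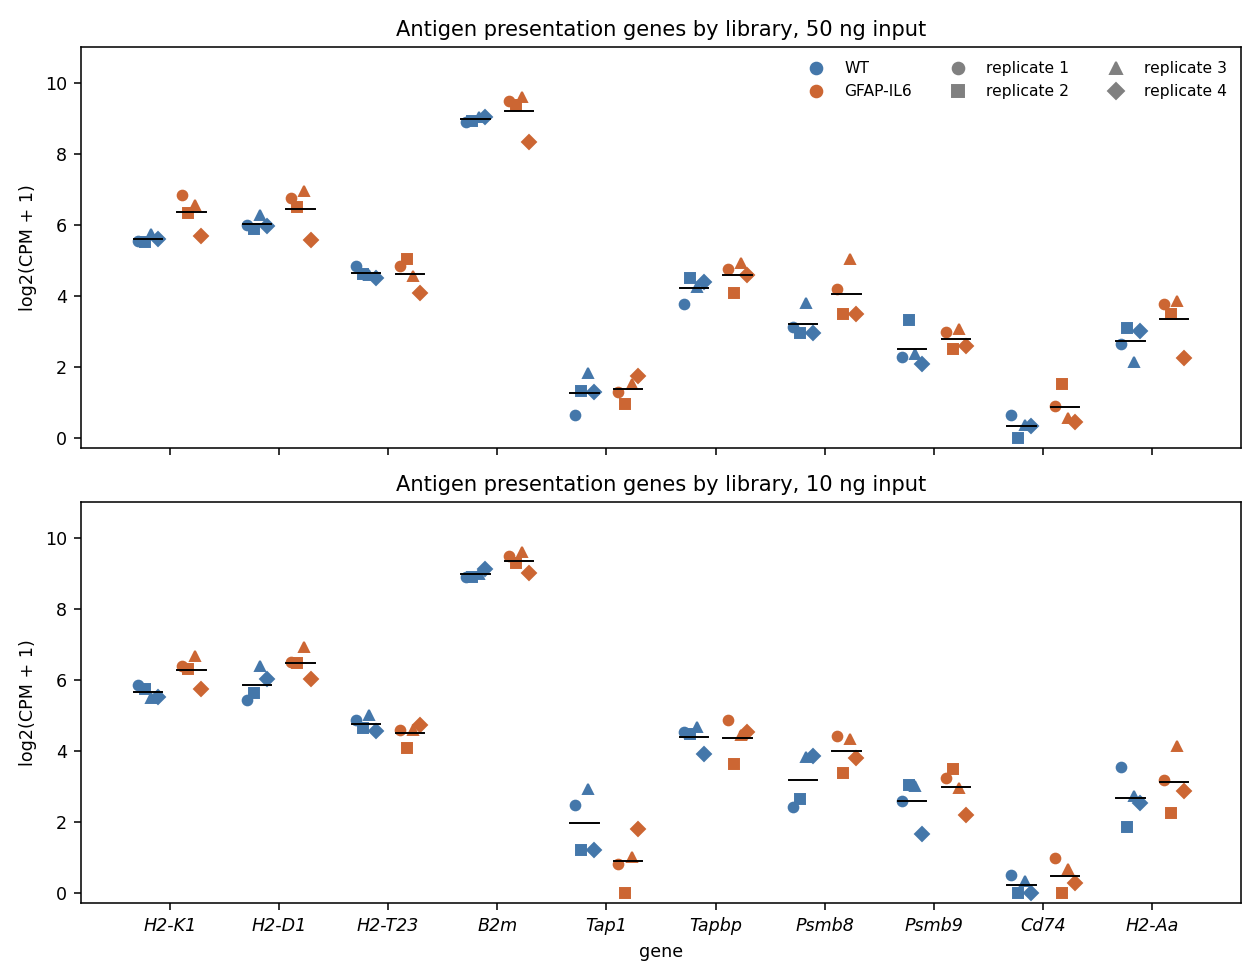
The vertical axes give log2(CPM + 1) of each of the 10 genes at 50 ng (upper) and 10 ng (lower), 1 point per library, with colour for genotype, marker shape for replicate number and a black line at the mean of the 4 log2 values. GFAP-IL6 replicate 4 (orange diamond) sits with or below WT for H2-K1, H2-D1 and B2m, where the other 3 GFAP-IL6 libraries sit above WT.

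The ratio of H2-K1 to H2-T23 counts within a library does not depend on its total. This ratio was chosen after the values were seen. At 50 ng it was 1.64, 1.94, 2.30 and 2.24 in WT and 4.12, 2.5, 4.16 and 3.20 in GFAP-IL6. Replicate 4 was here above all WT libraries, so the genotypes did not overlap. In that library H2-T23 was the lowest of any at 50 ng (15.8 CPM), while H2-K1 (50.5 CPM) lay within the WT range. Of all genes, 1.24% had a ratio to H2-T23 that was higher in every GFAP-IL6 library at 50 ng, and 6.81% did at 10 ng. At 10 ng the H2-K1 ratio was 2.02, 2.22, 1.40 and 1.98 in WT and 3.55, 4.88, 4.36 and 2.07 in GFAP-IL6, and replicate 4 fell within the WT range. The ratios of H2-D1 and B2m to H2-T23 overlapped between genotypes at both inputs.

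The peptide loading genes gave little separation. Tapbp at 50 ng had 12.7, 21.8, 17.8 and 19.8 CPM in WT and 25.8, 15.9, 29.5 and 23.1 CPM in GFAP-IL6. Replicate 2 was the GFAP-IL6 library within the WT range and the other 3 were above it. Tapbp had log2 fold changes of 0.40 ± 0.240 at 50 ng and 0.06 ± 0.271 at 10 ng (SE, edgeR adjusted p = 0.835 and 0.972). Tap1 was too low for the test at every input. It had 2 to 11 counts in WT and 1 to 13 counts in GFAP-IL6 libraries at 50 ng, or 0.553 to 2.5 and 0.933 to 2.33 CPM. At 10 ng Tap1 had 1.31 to 6.57 CPM in WT and 0 to 2.44 CPM in GFAP-IL6. Tap2, the other subunit of the transporter, was also low, with means at 50 ng of 3.58 ± 0.826 CPM for WT and 3.44 ± 1.94 CPM for GFAP-IL6 (SD, n = 4).

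Among the immunoproteasome subunits, Psmb8 had the largest fold change of the 8 genes tested at 50 ng. Its levels were 7.75, 6.77, 12.8 and 6.77 CPM in WT and 17.4, 10.3, 31.8 and 10.2 CPM in GFAP-IL6. WT replicate 3 lay above GFAP-IL6 replicates 2 and 4, and the other WT libraries were below all GFAP-IL6 libraries. The log2 fold change was 1.03 ± 0.337 (SE, edgeR adjusted p = 0.550), against 1.31 without GFAP-IL6 replicate 4 (edgeR adjusted p = 0.0213). At 10 ng WT had 4.32, 5.28, 13.1 and 13.4 CPM of Psmb8 and GFAP-IL6 had 20.4, 9.39, 19.2 and 13 CPM, a log2 fold change of 0.74 ± 0.355 (SE, edgeR adjusted p = 0.655), or 0.83 without GFAP-IL6 replicate 4 (edgeR adjusted p = 0.909). Psmb9 had 5 to 32 counts per library at 50 ng. Its levels were 3.87, 9.03, 4.17 and 3.18 CPM in WT and 6.95, 4.66, 7.38 and 5.02 CPM in GFAP-IL6, with WT replicate 2 above all other libraries. Psmb9 had log2 fold changes of 0.40 ± 0.390 at 50 ng and 0.41 ± 0.505 at 10 ng (SE, edgeR adjusted p = 0.844 and 0.876).

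The third catalytic subunit of the immunoproteasome and the constitutive counterparts gave no call either. Psmb10 at 50 ng averaged 121 ± 9.42 CPM in WT and 113 ± 21.4 CPM in GFAP-IL6 (SD, n = 4). Its log2 fold change was -0.14 ± 0.173 (SE, edgeR adjusted p = 0.878). Of the subunits that the immunoproteasome replaces, Psmb5 had a log2 fold change of -0.41 ± 0.194, Psmb6 of -0.20 ± 0.209 and Psmb7 of -0.02 ± 0.265 at 50 ng (SE, edgeR adjusted p = 0.835, 0.858 and 0.990).

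H2-Aa and Cd74 had few counts in both genotypes. H2-Aa at 50 ng had 5.26, 7.52, 3.34 and 7.03 CPM in WT and 12.5, 10.3, 13.4 and 3.76 CPM in GFAP-IL6. GFAP-IL6 replicates 1 to 3 were above every WT library and replicate 4 lay within the WT range. A log2 fold change of 0.73 ± 0.394 (SE, edgeR adjusted p = 0.835) resulted, against 1.08 without GFAP-IL6 replicate 4 (edgeR adjusted p = 0.193). At 10 ng H2-Aa had 10.7, 2.64, 5.56 and 4.75 CPM in WT and 8.12, 3.76, 16.5 and 6.30 CPM in GFAP-IL6, with overlapping groups and a log2 fold change of 0.51 ± 0.443 (SE, edgeR adjusted p = 0.814), or 0.67 without GFAP-IL6 replicate 4 (edgeR adjusted p = 0.977). Cd74 had 0 to 4 counts in every library at every input and was never tested. Over the 4 libraries of a group, Cd74 summed to 5 counts in WT and 9 in GFAP-IL6 at 50 ng, and to 3 and 9 counts at 10 ng. The beta chains of class II were also low. H2-Ab1, the class II beta chain that pairs with H2-Aa, had 5.53, 3.76, 3.90 and 3.58 CPM in WT and 9.56, 9.33, 20.3 and 4.30 CPM in GFAP-IL6 at 50 ng, a log2 fold change of 1.33 ± 0.409 (SE, edgeR adjusted p = 0.457). H2-Ab1 passed the test without GFAP-IL6 replicate 4. H2-Eb1, another class II beta chain, had a log2 fold change of 0.65 ± 0.376 at 50 ng and 1.13 ± 0.471 at 10 ng (SE, edgeR adjusted p = 0.835 and 0.577).

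At 50 ng 8 of the 10 genes could be tested, and 0 passed edgeR's test at an adjusted p under 0.05, beside 0.28% of all genes tested that were called higher in GFAP-IL6. At 10 ng 0 of 8 passed, beside 0.299% of all genes. An unadjusted p under 0.05 was reached by 2 of 8 genes at 50 ng and 4 of 8 at 10 ng, beside 5.63% and 7.48% of all genes tested, and the DESeq2 test called 0 at both. Positive log2 fold changes were seen for 7 of 8 at each input, with H2-T23 below 0, and the median over the 8 was 0.43 at 50 ng and 0.46 at 10 ng, where the median of all genes tested was 0 each time. Of the 10 genes, 0 had all GFAP-IL6 values above all WT values at 50 and 10 ng, beside 2.17% and 2.77% of genes tested. Without GFAP-IL6 replicate 4 the test called 4 genes at 50 ng (H2-K1, H2-D1, B2m and Psmb8) and 1 at 10 ng (H2-K1), beside 0.654% and 0.28% of all genes called higher in that setting. In all 78 genes were then called higher at 50 ng, where 33 were called with every library. GFAP-IL6 replicate 4 was left out after its values were seen, so those calls are not a separate test. All GFAP-IL6 values were above all WT values without replicate 4 for 4 of the 10 genes at 50 ng (H2-K1, H2-D1, B2m and H2-Aa), beside 4.49% of genes tested, and for 3 at 10 ng (H2-K1, H2-D1 and B2m), beside 4.13%. In the other direction, 1 of the 10 genes was below all WT values at 10 ng, beside 247 of 12043 genes tested. This was Tap1, with at most 0.992 CPM against at least 1.31 CPM in WT. Leaving out any other library gave 0 calls among the 10 at either input.

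**Figure D2:**
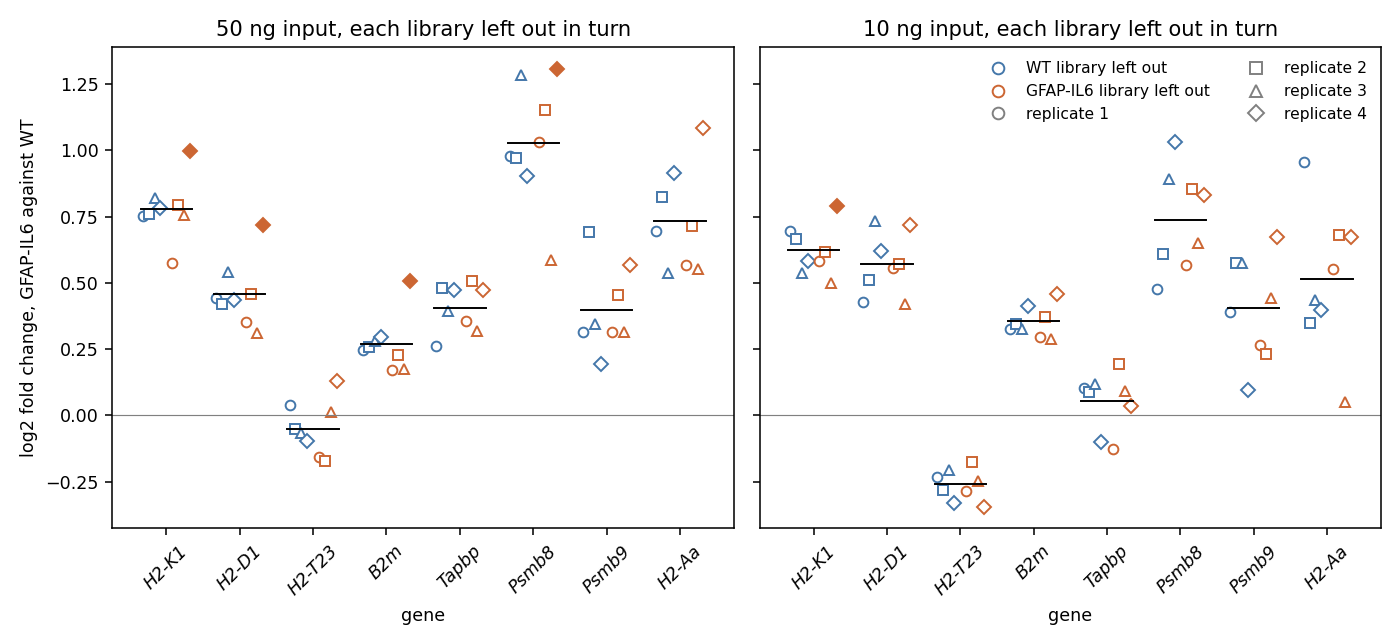
The vertical axis gives the log2 fold change of GFAP-IL6 against WT when each of the 8 libraries in turn is left out at 50 ng (left) or 10 ng (right), for the 8 genes tested. Colour and shape name the library left out, filled markers passed an adjusted p under 0.05 in edgeR, and black lines give the value with all libraries. Every filled marker belongs to GFAP-IL6 replicate 4.

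At 1 ng 7 of the 10 genes could be tested and 0 passed in edgeR, beside 0.0323% of all genes called higher. An unadjusted p under 0.05 was reached by 1 (B2m), beside 3.59% of all genes tested, and the DESeq2 test called 0. B2m kept the tightest values, 533, 396, 594 and 470 CPM in WT and 683, 846, 783 and 579 CPM in GFAP-IL6. Replicate 4 of GFAP-IL6 lay just below WT replicate 3, so the groups overlapped by that pair. B2m had a log2 fold change of 0.52 ± 0.164 (SE, edgeR adjusted p = 0.997). The heavy chains scattered more. H2-K1 had 74.6, 40.9, 61.0 and 45.8 CPM in WT and 53.3, 68.9, 171 and 27.5 CPM in GFAP-IL6, and its log2 fold change of 0.48 ± 0.444 turned to -0.21 without GFAP-IL6 replicate 3 (SE, edgeR adjusted p = 0.997 and 0.998). Psmb8 had 24.9, 27.3, 3.21 and 13.1 CPM in WT and 25.9, 15.3, 11.7 and 5.0 CPM in GFAP-IL6, with a log2 fold change of -0.25 ± 0.843 (SE, edgeR adjusted p = 0.997). H2-Aa had 0 to 18 counts and was not tested. All GFAP-IL6 values were above all WT values for 0 of the 10 genes, beside 1.68% of genes tested.

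At 0.5 ng 7 genes were tested and 0 passed in edgeR, beside 0.0117% of all genes called higher. An unadjusted p under 0.05 was reached by 2 (Psmb8 and H2-Aa), beside 2.87% of all genes tested, and the DESeq2 test called 0. B2m had 508, 403, 475 and 530 CPM in WT and 681, 563, 937 and 477 CPM in GFAP-IL6, again with replicate 4 inside the WT range. Its log2 fold change was 0.44 ± 0.217 (SE, edgeR adjusted p = 1.0). Psmb8 was the gene of the 10 whose genotypes did not overlap, beside 1.47% of genes tested, with 7, 0, 0 and 14 counts in WT and 35, 7, 47 and 109 counts in GFAP-IL6. Those counts were 5.82, 0, 0 and 5.32 CPM against 22.4, 23.7, 24.6 and 40.0 CPM, and the log2 fold change was 3.12 ± 1.31 (SE, edgeR adjusted p = 1.0). Psmb8 passed in a single fit of all 32 libraries (log2 fold change 3.05, edgeR adjusted p = 0.0207), which called 5.38% of all genes at this input in either direction. H2-Aa had 0, 0, 2.32 and 10.6 CPM in WT and 35.2, 98.3, 4.18 and 20.9 CPM in GFAP-IL6, with a log2 fold change of 3.33 ± 1.36 (SE, edgeR adjusted p = 1.0). GFAP-IL6 replicate 3 lay below WT replicate 4, so H2-Aa overlapped. H2-K1 had 128, 54.2, 49.4 and 23.6 CPM in WT and 21.8, 129, 28.2 and 59.5 CPM in GFAP-IL6, and its log2 fold change was -0.18 ± 0.665 (SE, edgeR adjusted p = 1.0). H2-T23 had 0 counts in WT replicate 2 and in GFAP-IL6 replicates 2 and 4, and 14 to 118 counts in the other libraries.

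**Figure D3:**
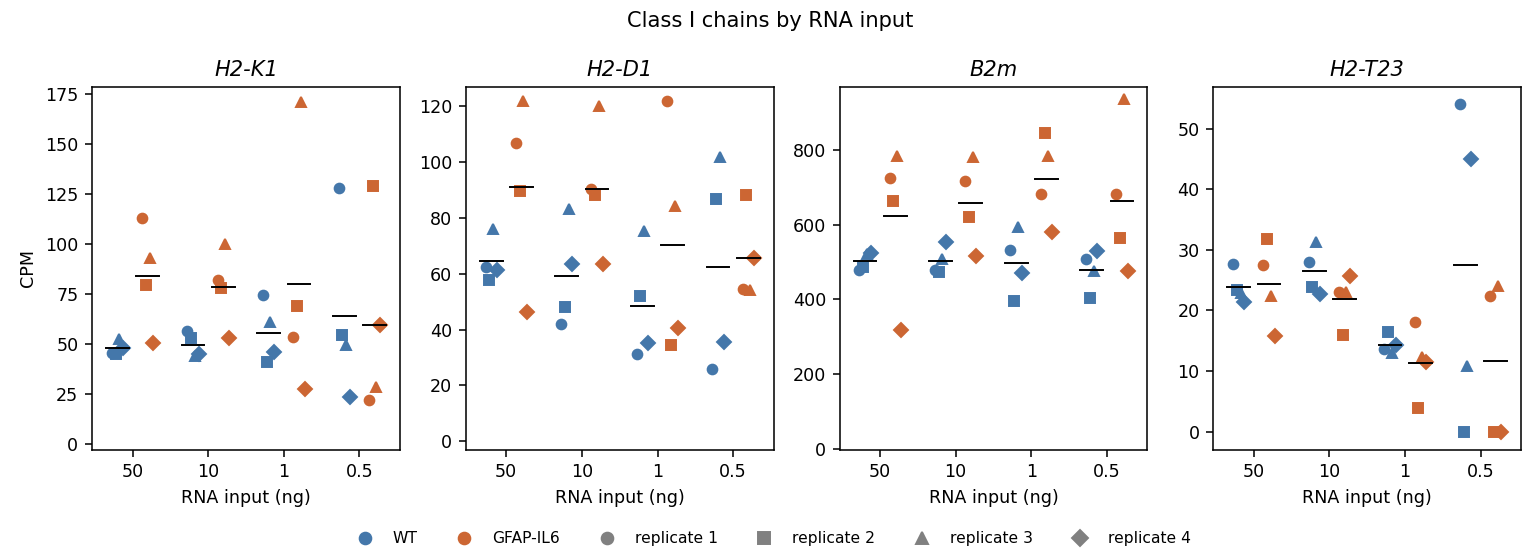
The vertical axes give CPM of the 4 class I chains, the horizontal axes the RNA input in ng, 1 point per library with the mean as a black line. B2m keeps the same order of genotype means at all inputs (502 and 623 CPM at 50 ng, 479 and 664 CPM at 0.5 ng, WT first), whereas H2-K1 and H2-T23 scatter widely at 0.5 ng.

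**Figure D4:**
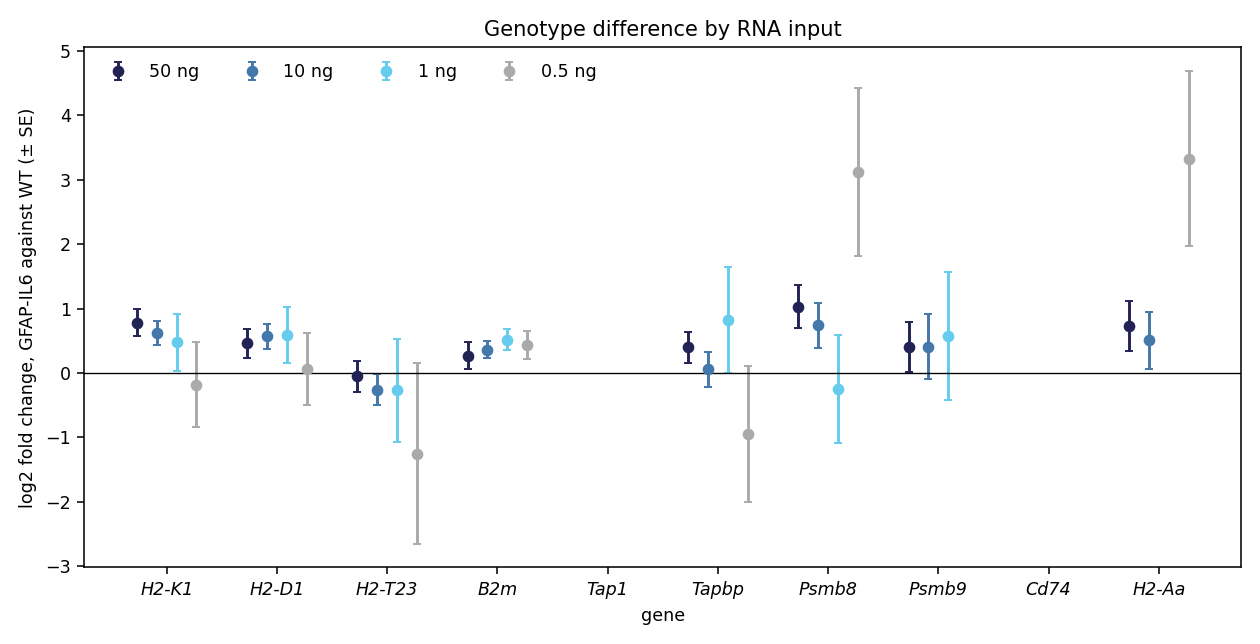
The vertical axis gives the log2 fold change of GFAP-IL6 against WT with its SE from edgeR, by gene and input. Tap1 and Cd74 have no point because they were too low to test, and SEs at 0.5 ng reach 1.40 for H2-T23 and 1.36 for H2-Aa.

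Counts of 0 were more frequent and the spread between replicates larger at 1 and 0.5 ng than at 50 and 10 ng. The median total count was 3603629, 4463016, 1457725 and 1428120 from the highest input to the lowest, so input and depth cannot be told apart here. Of 80 values per input (10 genes in 8 libraries), from the highest input to the lowest, 1, 4, 12 and 21 were 0 counts. Values under 3 counts numbered 10, 8, 23 and 23 in the same order. The SD of log2(CPM + 1) between replicates, pooled over genotypes and taken as the median over the 10 genes, was 0.419, 0.42, 0.965 and 1.31. For B2m the SD was 0.424, 0.199, 0.245 and 0.319 in that order, whereas from 50 to 0.5 ng H2-K1 went from 0.353 to 1.06 and H2-T23 from 0.315 to 2.66. The B2m value farthest from the others of its group at 50 ng was the 319 CPM of GFAP-IL6 replicate 4.

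**Figure D5:**
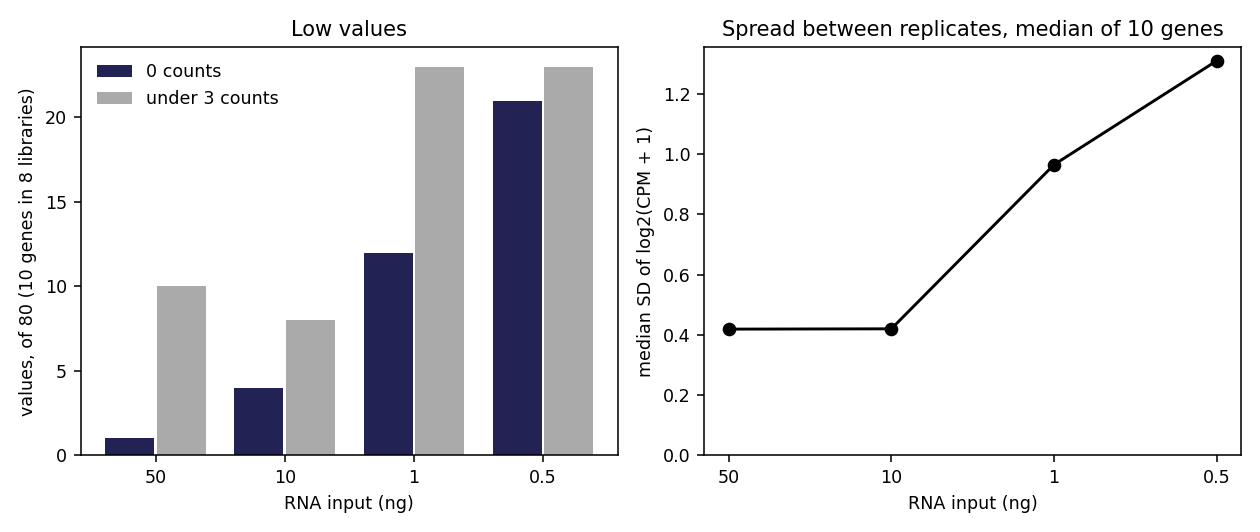
The left panel counts values of 0 and of under 3 counts among 80 values per RNA input, and the right panel gives the median over the 10 genes of the replicate SD of log2(CPM + 1). Both stay near each other at 50 and 10 ng and are higher at 1 and 0.5 ng.

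The mean level of these genes over genotypes was compared between inputs in a single fit of all 32 libraries. This fit took same-numbered libraries as separate, though they may share RNA across inputs. Of the 8 genes tested, 0 differed from 50 ng at 1 ng, beside 0.822% of all genes called in either direction, and 0 at 0.5 ng, beside 6.72%. An unadjusted p under 0.05 was reached by 1 gene at 1 ng (H2-Aa) and 0 at 0.5 ng, and the DESeq2 test called 0 of the 10 genes at either. At 10 ng 0 genes of the whole table passed in edgeR, 65 had an unadjusted p under 0.05 and the DESeq2 test called 2, neither of them among the 10. B2m had log2 differences from 50 ng of 0.06 ± 0.134, 0.15 ± 0.135 and 0.08 ± 0.135 at 10, 1 and 0.5 ng (SE, edgeR adjusted p = 1.0, 0.921 and 0.799). H2-Aa at 1 ng had the largest difference, -1.76 ± 0.753 (SE, edgeR adjusted p = 0.455). The genotype effect at an input was also compared with that at 50 ng. It differed for 0 of the 8 genes at every input, beside 0.197% of genes at 0.5 ng and 0 genes of the whole table at 10 and 1 ng (1 and 333 genes at an unadjusted p under 0.05 in edgeR). By the DESeq2 test 0 of the 10 genes differed at any input, and at an unadjusted p under 0.05 edgeR gave 0 of the 8 at each. For H2-K1 the difference of effects at 0.5 ng was -1.06 ± 0.634 and for H2-Aa 2.48 ± 1.36 (log2, SE, edgeR adjusted p = 0.593 and 0.540).

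A list of 47 other genes of antigen presentation and its control gave 31 genes that could be tested at 50 ng and 32 at 10 ng. Of these 2 were called higher at 50 ng (Ctss and Ifi30) and 1 at 10 ng (Ctss), and 0 were called lower. Among all genes tested, 0.28% and 0.299% were called higher at these inputs. The median log2 fold change of the list was 0.12 at 50 ng and 0.13 at 10 ng. Ctss encodes cathepsin S, the protease that cleaves the invariant chain. It had 199, 157, 185 and 172 CPM in WT and 587, 546, 694 and 247 CPM in GFAP-IL6 at 50 ng, so every GFAP-IL6 library was above every WT library and replicate 4 was nearest to WT. Ctss rose by a log2 fold change of 1.5 ± 0.225 at 50 ng and 1.75 ± 0.145 at 10 ng (SE, edgeR adjusted p = 0.00126 and 1.76e-10). It was the 1 gene of the list called at 1 and 0.5 ng, beside 0.0323% and 0.0117% of all genes called higher. Ifi30 encodes a thiol reductase that opens disulfide bonds of antigens in endosomes. It had 2.21, 2.26, 3.90 and 3.45 CPM in WT and 9.27, 9.33, 15 and 8.42 CPM in GFAP-IL6 at 50 ng, a log2 fold change of 1.73 ± 0.351 (SE, edgeR adjusted p = 0.0263). With any library but GFAP-IL6 replicate 4 left out, the list had 1 call at 50 ng. Without that library it had 3 (Ctss, Ifi30 and H2-Ab1), beside 0.654% of all genes called higher in that setting.

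The transactivators of these genes were near or below the floor of 3 counts. Ciita, the class II transactivator, had 0 counts in all 8 libraries at 50 ng. Nlrc5, the class I transactivator, had 0 counts in WT and 5, 0, 1 and 3 counts in GFAP-IL6 at 50 ng, and 0 counts in all 8 libraries at 10 ng. Irf1, a factor induced by interferon, had a log2 fold change of 0.37 ± 0.347 at 50 ng and -0.13 ± 0.495 at 10 ng (SE, edgeR adjusted p = 0.844 and 0.963). H2-Q4, a class I related chain, had 0 counts in all 32 libraries, and Cd80 had 0 at 50 ng. Of 20 interferon-stimulated genes, 13 were tested at 50 ng and 1 was called higher (Ifitm3, log2 fold change 1.17 ± 0.210 SE, edgeR adjusted p = 0.0115). At 10 ng 13 were tested and 1 was called higher. Among all genes tested, 0.28% and 0.299% were called higher at these inputs. The median log2 fold change of the interferon-stimulated genes was 0.62 at 50 ng and 0.14 at 10 ng.

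In bulk tissue, more cells of a type and more RNA per cell cannot be told apart. The summed level of 12 microglia markers was 612 to 731 CPM in WT and 751 to 1500 CPM in GFAP-IL6 at 50 ng, where the lowest GFAP-IL6 value was that of replicate 4 and the other 3 were at least 1060 CPM. Of the 12 markers, 3 were called higher at 50 ng and 5 at 10 ng, beside 0.28% and 0.299% of all genes tested. At 1 and 0.5 ng 0 of the 12 were called. None of the 12 was at 0 over the 4 libraries of either genotype. Endothelial markers summed to 20.2 to 27.5 CPM in WT and 34.5 to 87.3 CPM in GFAP-IL6 at 50 ng, with 0 of 2 tested genes called and the highest value in replicate 4. T cell markers summed to at most 1.84 CPM and B cell markers to at most 1.95 CPM in any library at 50 ng, with Cd3e, Cd3d, Cd8a and Ms4a1 at 0 in both genotypes. Monocyte markers reached at most 5.30 CPM and dendritic cell markers 14.9 CPM in any library at 50 ng, the latter with Xcr1 at 0. Border macrophage markers summed to 9.02 to 16.5 CPM in WT and 7.53 to 12 CPM in GFAP-IL6. Neuron and astrocyte markers, as the labelled tissue should hold, summed to at least 5610 and 2640 CPM in every library at 50 ng. The part of these cell types in the values of the antigen presentation genes was not tested.

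Over the 16 libraries at 50 and 10 ng, the 5 genes whose log2(CPM + 1) was most like that of B2m included Dbi (r = 0.936), Ctsl (0.921), Tpm4 (0.882) and Scrg1 (0.881), of 8735 genes with a mean of at least 10 CPM. Among the 10 antigen presentation genes that reached this mean, Pearson's r with B2m was 0.878 for H2-D1, 0.804 for H2-K1, 0.654 for Psmb8, 0.241 for H2-T23 and 0.138 for Tapbp. These are descriptions across libraries that share genotypes and depth, with no test. Tap1 and Psmb9 overlap by 212 exon bases on opposite strands. Tapbp overlaps the antisense gene Gm19412 by 904 exon bases and Psmb8 overlaps the antisense gene Gm20496 by 498. On the same strand, Tapbp shares 149 exon bases with Zbtb22 and Cd74 shares 12 with the microRNA gene Mir5107. Of these overlaps, only that of Cd74 came within 500 bases of the annotated 3′ end of the gene, with 11 bases. The strand setting of the counting is not given in the sources used here. Part of the counts of Tapbp, Psmb8, Psmb9 and Tap1 is therefore uncertain. Whether the same-strand overlaps changed the counts of Tapbp or Cd74 was not tested.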

How the data were processed

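The authors trimmed poly(A) from single-end reads, aligned them with STAR (version 2.4 in the submitters' processing notes) to the mouse genome and used featureCounts to count reads with a unique alignment in each GENCODE gene. The deposited table held whole-number counts, not normalized, for 33000 genes in 32 libraries, beside a gene length column by the authors, which was not used. Samples were grouped by genotype and input from the labels. CPM were counts scaled to a common library total. edgeR 4.0.16 in R 4.3.3 (TMM, filterByExpr, quasi-likelihood test, Benjamini-Hochberg over all genes tested) compared genotypes within each input without covariates, with calls at an adjusted p under 0.05, and inputs in a fit of all 32 libraries. SEs came from the F statistic. The pipeline was tested on simulated data. Alternatives were DESeq2 1.42.0 (the authors' tool), DESeq2 size factors, no low count filter, limma 3.58.1 voom, a replicate block, a single fit and leaving out each library. PCR reads carried no molecular identifiers, so the 3 count floor covers counting error only. Named genes were all 10, then listed genes that passed at 50 or 10 ng, were without counts or partner the 10. The genes and lists were chosen with earlier results of these data known. Coordinates are from GENCODE on GRCm38, and 9 of 10 promoter windows were found. Python 3.11.15 and pandas 2.3.3 gave the other values. Some genes that the naming rule gives are not reported here.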

Additional observations from a re-analysis of the deposited data

Results flagged for a closer look

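Dixon's test flagged 10 of 79 groups of 4 libraries (1 gene, genotype and input each), with about 1 in 20 flagged by chance. Most hold few counts. At 50 and 10 ng no flag fell on GFAP-IL6 replicate 4. Tap1 stood out in WT replicate 1 at 1 ng (3.27 CPM, 5 counts), in GFAP-IL6 replicate 4 at 1 ng (1.07 CPM, 3 counts) and in WT replicate 1 at 0.5 ng (24.9 CPM, 30 counts), each beside 3 libraries at 0. Cd74 stood out in GFAP-IL6 replicate 2 at 1 ng (11.5 CPM, 3 counts) and at 0.5 ng (13.6 CPM, 4 counts), in the library with the lowest total of its group, and in WT replicate 3 at 0.5 ng (0.772 CPM, 1 count). Psmb8 in WT replicate 3 at 50 ng had 12.8 CPM, with 6.77 to 7.75 CPM in the other libraries. Psmb8 in GFAP-IL6 replicate 4 at 0.5 ng had 40.0 CPM, with 22.4 to 24.6 CPM in the others. Psmb9 in WT replicate 2 at 50 ng had 9.03 CPM, with 3.18 to 4.17 CPM in the others. H2-Aa in GFAP-IL6 replicate 3 at 1 ng had 10 CPM (18 counts), with 0 to 0.721 CPM in the others.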

How the results depend on the processing

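Libraries with the same replicate number were checked for pairing by correlating their deviations from the group means over 8749 genes. At 50 ng WT and GFAP-IL6 gave r of 0.235, 0.0692, 0.326 and 0.257 for numbers 1 to 4. Between 50 and 10 ng r was 0.15, 0.144, 0.383 and 0.216 in WT and 0.365, 0.054, 0.531 and 0.695 in GFAP-IL6. As number 2 was under 0.1 between genotypes and in GFAP-IL6 between inputs, the main fits did not use the numbers to pair libraries. Number 2 also had the lowest total count of each group. WT number 3 had high summed choroid plexus markers at every input (3390, 3020, 3100 and 3120 CPM, highest input first). At least that number thus followed the same tissue sample across inputs, and the inputs are not independent repeats. With the replicate block 0 of the 10 genes were called between genotypes at each input and 0 between inputs, as without it.

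Without a low count filter 1 of the 10 genes was called at 50 ng (H2-K1, edgeR adjusted p = 0.0212). In that setting 90 genes were called higher and 3 lower of 18948, where the main fit called 33 higher of 11773. Leaving out each library gave 0 to 4 calls at 50 ng and 0 to 1 at 10 ng, and the calls came without GFAP-IL6 replicate 4. The pathway list had 1 to 3 calls at 50 ng with a library left out and 1 in a single fit of all libraries. At 1 ng it had 2 calls by the DESeq2 test and 2 in the single fit. Of all genes at this input, the DESeq2 test called 12 higher and 1 lower of 15379. The single fit called 11 higher and 1 lower of 12164. At 0.5 ng the single fit called 8 of the list (7 higher and 1 lower) and 1 of the 10 genes (Psmb8), beside 5.38% of all genes, where a spread shared with the higher inputs replaced that of 0.5 ng by construction. With a library left out, the genes with all GFAP-IL6 values above all WT values numbered 0 to 4 at 50 ng and 0 to 3 at 10 ng (4 and 3 without GFAP-IL6 replicate 4, beside 4.49% and 4.13% of genes tested), 0 to 1 at 1 ng and 1 to 3 at 0.5 ng. At 1 ng this count was 1 (B2m) with TMM-scaled library sizes and 1 with DESeq2 size factors. Some fold changes turned sign with a library left out, and not all of them were near 0 with every library. H2-T23 at 50 ng ran from -0.17 to 0.13 (0.01 in the single fit), Tapbp at 10 ng from -0.13 to 0.19, Psmb8 at 1 ng from -0.79 to 0.06, H2-K1 from -0.21 to 0.79 at 1 ng and from -0.81 to 0.44 at 0.5 ng, and H2-D1 at 0.5 ng from -0.20 to 0.36. The cause was not tested. At 1 and 0.5 ng, where Tap1 and Cd74 were mostly at 0 to 4 counts, differences in these genes were not detectable at this depth.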
